A study of Homo sapiens with 6 samples.

Results

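EEF2 encodes eukaryotic elongation factor 2 (eEF2), and the sites described here are the places on its transcript at which GAPDH (the glycolytic enzyme glyceraldehyde-3-phosphate dehydrogenase) was crosslinked to RNA. They were chosen by the gene symbol EEF2 in 3 lists of GAPDH sites, and the gene itself was picked with its positions in these lists known, so its counts and places are given as descriptions without a test. The rule found 9 sites of 1316 in all, with 0 of 337 in the galactose list, 5 of 484 in the low glucose list and 4 of 495 in the normal glucose list.

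The cells were MOLM-13, an established human acute myeloid leukaemia line, kept under galactose, low glucose or normal glucose conditions. The labels name no genetic modification and no other treatment. Each condition had 2 samples, and in all of them GAPDH was crosslinked to RNA with UV light, precipitated with a polyclonal antibody and its RNA trimmed with RNase T1 for sequencing (CLIP-seq). The authors had joined the 2 samples of a condition into 1 list of positions, so that neither the reads behind a site nor the spread between samples can be given, and the comparisons below are between lists. Peak lists hold no expression levels, so the cell type could only be looked up by symbol, with 1 of 13 myeloid and leukaemia markers in any list (CEBPA, in low glucose, by a peak annotated to 2 genes) and 0 of 10 markers of other cell types. Of 20046 protein coding genes in the annotation, 2.79% had a peak in any list, so the marker counts do not tell one cell type from another.

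eEF2 is the GTPase that moves transfer RNA and messenger RNA through the ribosome after each peptide bond. A histidine near its tip is turned into diphthamide, the residue that diphtheria toxin attacks, and a threonine in its GTP-binding domain is phosphorylated by eEF2 kinase, which slows elongation and is known to respond to nutrient stress. Its messenger RNA is abundant in growing cells and belongs to the class whose translation follows nutrient supply through a pyrimidine tract at the 5' end. An intron of the gene carries SNORD37, a box C/D small nucleolar RNA.

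No list shares a site of EEF2 with another, so the sequences differ between the lists, and 7 of the 9 sites are shown here in full to let them be read beside each other. Each is written 5' to 3' on the minus strand of hg38, the strand of the gene. The capitals mark the core, which is the site less 50 nt at each end. The narrowest sites of every list are a single base with 50 nt on either side. If the wider sites were extended in the same way, their capitals span the first to the last crosslinked base.
Low glucose, exon 2, chr19:3984088-3984192: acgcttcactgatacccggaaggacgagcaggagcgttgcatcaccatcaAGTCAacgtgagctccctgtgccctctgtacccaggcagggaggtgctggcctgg
Low glucose, exon 12, chr19:3977925-3978025: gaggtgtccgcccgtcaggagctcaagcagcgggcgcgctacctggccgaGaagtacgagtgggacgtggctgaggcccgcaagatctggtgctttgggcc
Low glucose, exon 13, chr19:3977405-3977650: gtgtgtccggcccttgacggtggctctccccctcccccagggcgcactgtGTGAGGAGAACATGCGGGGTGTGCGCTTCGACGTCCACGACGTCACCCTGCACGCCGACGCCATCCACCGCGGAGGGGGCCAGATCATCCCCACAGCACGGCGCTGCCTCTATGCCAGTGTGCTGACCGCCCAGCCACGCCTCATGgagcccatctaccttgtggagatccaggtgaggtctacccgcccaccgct
Low glucose, exon 14, chr19:3977181-3977283: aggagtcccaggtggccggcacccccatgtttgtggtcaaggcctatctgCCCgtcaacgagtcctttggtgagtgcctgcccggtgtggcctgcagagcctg
Normal glucose, exon 11, chr19:3979278-3979391: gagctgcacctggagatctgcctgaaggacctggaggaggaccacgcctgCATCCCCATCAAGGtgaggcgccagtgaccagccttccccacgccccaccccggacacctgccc
Normal glucose, exon 12, chr19:3978109-3978209: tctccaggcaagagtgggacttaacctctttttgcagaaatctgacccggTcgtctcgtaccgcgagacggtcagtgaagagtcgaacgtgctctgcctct
Normal glucose, exon 15, chr19:3976585-3976685: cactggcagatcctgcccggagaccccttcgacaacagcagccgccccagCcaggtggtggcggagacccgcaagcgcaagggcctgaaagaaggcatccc

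EEF2 held sites in both glucose lists and none in the galactose list. In galactose, 0 of 337 peaks had an exact 95% interval of 0 to 1.09%. The separate limit used for a count of 0, which is not an exact interval, was 0.89%. The share was 1.03% in low glucose, with an exact 95% interval of 0.336 to 2.39%. In normal glucose the share was 0.808%, and the interval ran from 0.221 to 2.06%. The exact galactose interval thus took in the shares of both glucose lists. A difference of share between the lists was not tested, and the intervals cover counting error over peaks only. By position, too, no galactose peak lay over the gene, and the nearest of the 30 galactose peaks on chromosome 19 was 738629 nt away (4724093 to 4724193). Among the 103 protein coding genes with a peak in both glucose lists, 31 (30.1%) likewise had none in galactose. The galactose list is also the shortest of the lists, and whether its length or depth has a part in the missing sites was not tested.

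The gene (ENSG00000167658, chromosome 19, 3976056 to 3985463, minus strand) spans 9408 nt. Its canonical transcript ENST00000309311.7 has 15 exons and 3158 nt, with 83 nt of 5'UTR, 858 codons and 498 nt of 3'UTR after the stop codon. All 9 sites touched coding sequence and none touched either UTR. They fell on 8 exons, of which exon 12 alone held a site of each glucose list. Exons 1, 3 and 5 to 9 held none. Low glucose sites lay toward both ends of the coding sequence, in exons 2, 4, 12, 13 and 14. Normal glucose sites lay only in the later part, in exons 10, 11, 12 and 15. Each of the 9 was annotated to EEF2 and to no second gene.

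**Figure D1:**
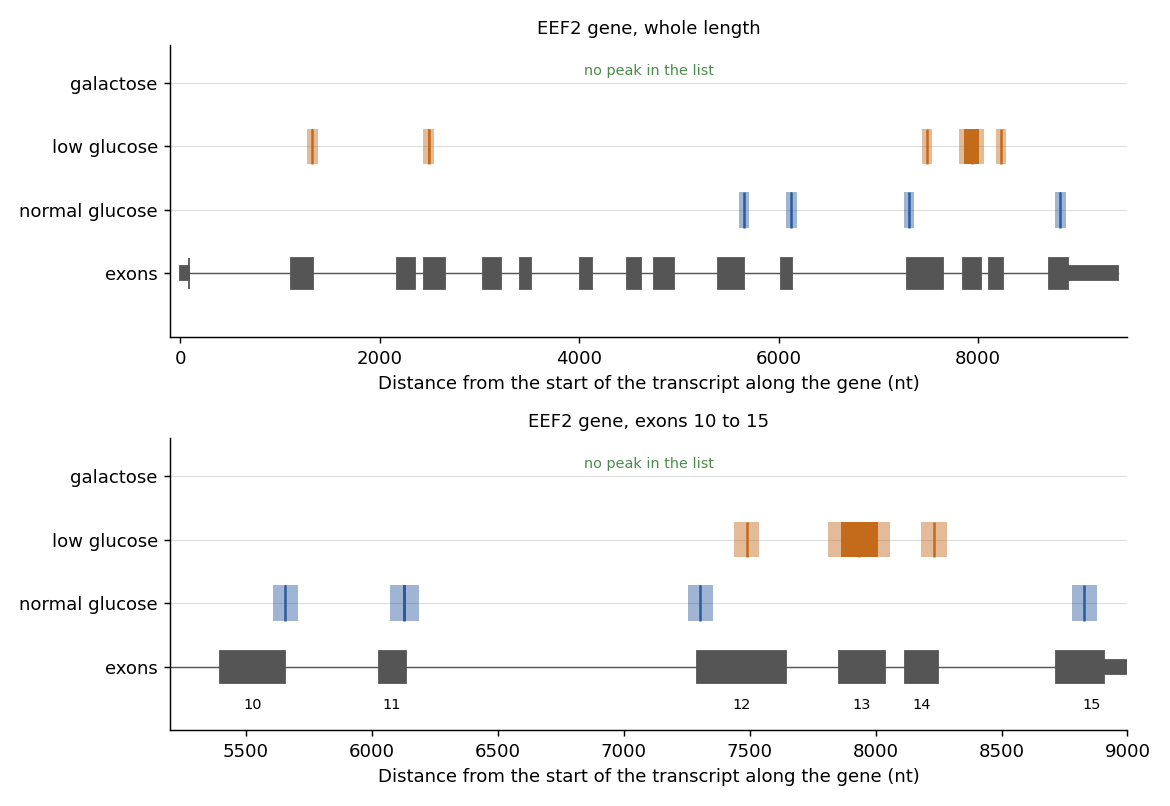
EEF2 sites of each list along the gene, in nt from the start of the transcript, with the whole gene above and exons 10 to 15 below. Pale bars are the sites, dark marks their cores, tall grey boxes coding sequence and low grey boxes UTR. The low glucose list has 5 sites and the normal glucose list 4, none of which overlap, and the galactose list has 0.

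In low glucose, exon 2 held the site closest to the 5' end of the mRNA. It was 105 nt wide, with its middle at nt 297 of the mRNA, and covered codons 54 to 73. Codon 57, which encodes the threonine that eEF2 kinase phosphorylates (counted from the initiator methionine), lay inside this site but outside its core, which fell on codons 71 and 72. In exon 4 the site was 107 nt wide, with its middle at nt 529 and its core on codons 148 to 150. Both lie in the part of the message that encodes the GTP-binding domain.

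The other low glucose sites followed each other over neighbouring exons near the 3' end of the coding sequence. Exon 12 held one of the narrowest kind, with a core of 1 nt in codon 637. The next, in exon 13, was 246 nt wide and covered the whole exon of 183 nt (codons 690 to 750), with 40 nt of the intron before it and 23 nt of the intron after it. Its core of 146 nt ran over codons 693 to 741, and codon 715, which encodes the histidine made into diphthamide, lay inside that core. In exon 14 the site was 103 nt wide, with its core in codon 789. The gaps between these neighbouring sites were 274 and 121 nt. All low glucose sites together covered 509 nt of exon, beside 2574 coding nt in the transcript. Whether codons 57 and 715 lay in them beyond that share was not tested.

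The site in exon 13 stood apart from the other EEF2 sites by its width. Of all 484 low glucose peaks, 2 (0.413%) were at least as wide, itself included, and it was the widest of the 111 low glucose peaks with their middle in coding sequence. The other 4 low glucose sites were at most 107 nt wide, and the median over the 5 was 105 nt, beside 102 nt for the whole list. In normal glucose the exon 11 site measured 114 nt and the other 3 had the smallest width. A core of a single base was thus found in 1 of the 5 low glucose sites of EEF2 and in 3 of its 4 normal glucose sites. It was found in 47.1% of all low glucose peaks (51.4% in coding exons) and in 64.8% of all normal glucose peaks (88% in coding exons).

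**Figure D2:**
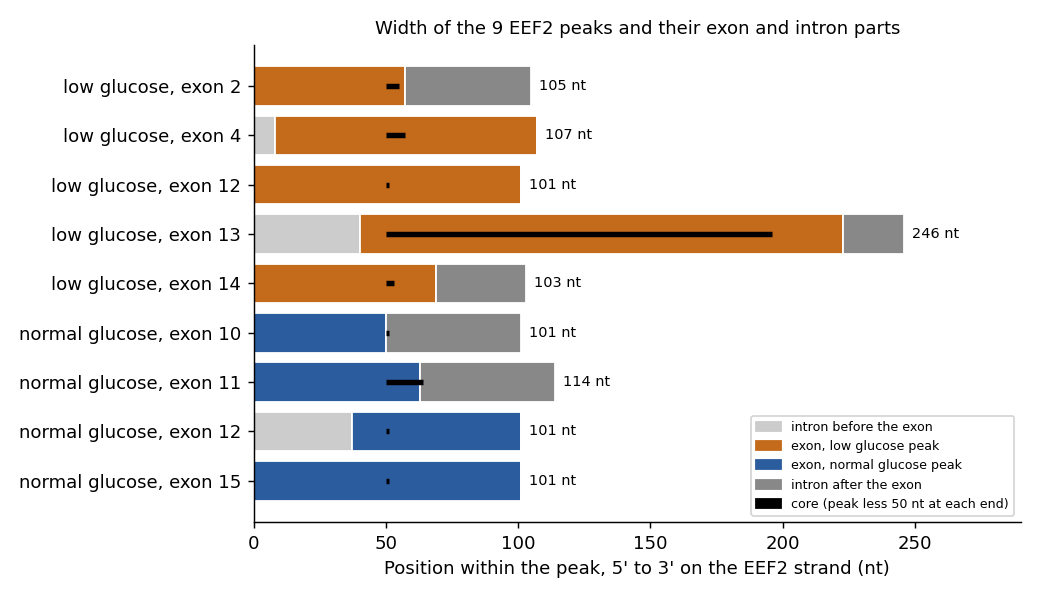
Width of each EEF2 site in nt, read 5' to 3' on the strand of the gene, with its parts in the intron before the exon (light grey), in the exon (coloured by list) and in the intron after it (dark grey). The black line is the core. The low glucose site in exon 13 is 246 nt wide, and the cores in exons 10 and 11 of the normal glucose list reach the border of exon and following intron.

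In normal glucose, the site in exon 10 had a core of 1 nt. With starts read as 1-based, this core lay not in the exon but on the first base of the intron after it. The exonic part of the site covered codons 519 to 535. Exon 11 carried the site of 114 nt, over codons 551 to 571, whose core of 14 nt also ended on the first base of the following intron. The exon 12 site had 37 nt in the intron before the exon, and its core of 1 nt lay 13 nt into the exon, in codon 576. In exon 15, the last exon, the site lay wholly in coding sequence, with its core of 1 nt in codon 832. It was the site closest to the stop codon.

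No low glucose site of EEF2 overlapped a normal glucose site. The shortest gap was 83 nt, in exon 12, between the normal glucose site (3978109 to 3978209) and the low glucose site (3977925 to 3978025) downstream of it. From the low glucose sites to the nearest normal glucose site the gap had a median of 495 nt and reached 4230 nt at exon 2. An overlap of 0 of 5 low glucose sites stood beside 27.9% of all low glucose peaks that overlapped a normal glucose peak, but beside 6.31% of those with their middle in coding exons. Likewise, 0 of 4 normal glucose sites stood beside 27.3% of all normal glucose peaks and 5.56% of those in coding exons. The absence of a shared place was therefore near the background of coding sequence. By gene, 40 of the 103 protein coding genes with peaks in both glucose lists (38.8%) had no overlapping peak, EEF2 among them, and of the 18 such genes with at least 2 peaks in each of these lists, 7 had none.

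Positions in the spliced mRNA brought some sites closer together than in the genome. The normal glucose sites of exons 11 and 12 were 1068 nt apart in the gene, but their middles lay at nt 1791 and 1810 of the mRNA, 19 nt apart. Their cores lay on either side of the junction of exons 11 and 12 with 13 nt between them, against 1168 nt in the genome. The low glucose site of exon 12 came next in the mRNA, at nt 1994. Between the lists, the closest middles in the mRNA were those of the low glucose site in exon 14 (nt 2449) and the normal glucose site in exon 15 (nt 2579), 130 nt apart. Of the 9 sites, 7 included intron sequence, in 5 of them only in the 50 nt beside a core that lay wholly in the exon, and in exons 10 and 11 of the normal glucose list in the core itself. Of the covered length, 76.9% was exonic over the low glucose sites and 66.7% over the normal glucose sites, and the lists do not show whether RNA of the intron was recovered.

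Of the 9 cores, 3 reached within 2 nt of the last base of an exon, 1 in low glucose (exon 2, with 2 exonic bases after the core) and 2 in normal glucose (exons 10 and 11, with the core ending 1 base past the exon). The borders of exons 2 and 11 are shown as 15 nt on each side, with the exon in capitals, to show where the cores end against the border. In exon 2 there are 2 exonic bases between the core and the GT that opens the intron, and in exon 11 the core takes in the G of that GT. Both statements, and the count of 3 cores, rest on starts read as 1-based. With starts read from 0, the 3' end of each core would lie 1 base further toward the 5' end.
Low glucose, exon 2, chr19:3984121-3984150: CACCATCAAGTCAACgtgagctccctgtgc
Normal glucose, exon 11, chr19:3979314-3979343: TGCATCCCCATCAAGgtgaggcgccagtga
Among all coding peaks, the core came this near to the 3' end of an exon in 6.48% of 108 low glucose peaks and 6.31% of 111 normal glucose peaks, EEF2 included. Without EEF2 it did so in 6 of 103 and 5 of 107 peaks. No core of the 269 coding peaks of the 3 lists came within 2 nt of the 5' end of an exon that follows an intron. Coding peaks are here those whose core came within 2 nt of the coding sequence of a canonical transcript, and the measure was picked with the EEF2 positions in view.

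Of the EEF2 cores, 2 of 5 in low glucose and all 4 in normal glucose directly followed a G. The low glucose cores of exons 2 and 12 followed an A, and that of exon 13 a U. RNase T1, used in the protocol to trim the RNA, cuts after G. In the low glucose list the core followed a G in 25.4% of all peaks and in 23.2% of coding exon peaks, and in the normal glucose list in 55.9% and 78.4%. All 4 normal glucose sites thus had the base that most coding peaks of their list had, and the part of the nuclease in their positions was not tested. In exon 11 the last base of the core, on the first base of the intron, followed a G as well.

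The sites were rich in G and C. GC content ran from 61 to 67.5% over the low glucose sites (median 64.5%) and from 54.5 to 69.3% over the normal glucose sites (median 67.4%). The low glucose median was 5.33 percentage points above that of all peaks of the list (59.2%) but 0.13 points above that of its coding exon peaks (64.4%). In normal glucose it was 13 points above all peaks (54.5%) and 8.52 points above coding exon peaks (58.9%). The exception among the 9 was the normal glucose site of exon 12, which had the lowest GC content (54.5%) and the highest U content (24.8%), and takes in the pyrimidine-rich end of the intron before the exon. U content was lowest in exon 15, at 8.91%. AU-rich elements, known from earlier work as sequences that GAPDH binds, were searched as the pentamer AUUUA on the strand of the gene. None of the 9 sites held it, beside 6.57% of 426 low glucose peaks and 5.91% of 406 normal glucose peaks whose genes lie on 1 strand. Among coding exon peaks it was in 2.02 and 3.09% of these lists.

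**Figure D3:**
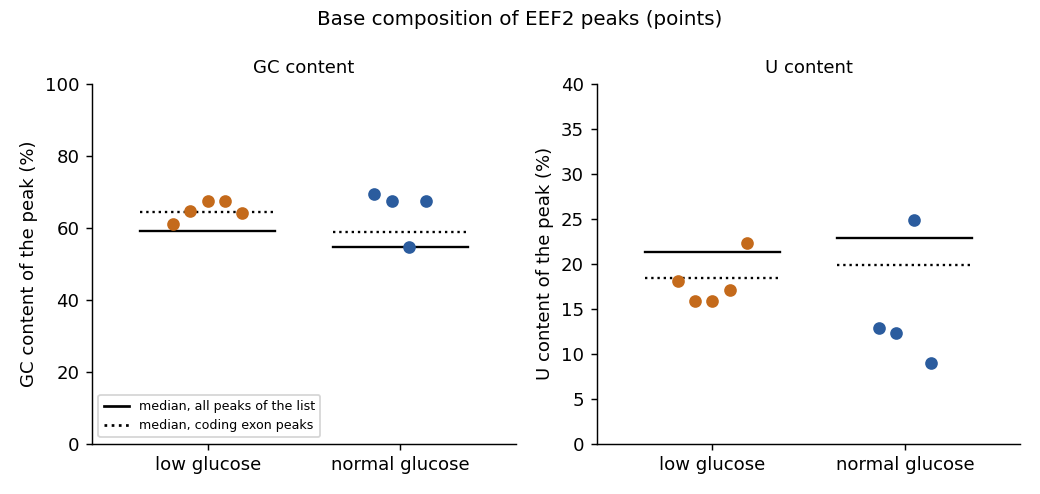
GC content (left) and U content (right) of the EEF2 sites, in percent of the bases of each site, by list. Points are sites, from 5' to 3' along the gene within each list, solid lines the median of all peaks of the list and dotted lines that of coding exon peaks. In normal glucose 3 of 4 sites lie at 67.3% GC or above, and the site of exon 12 lies at 54.5%.

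Every 30-mer of the 9 sites occurred once in the primary chromosomes of hg38, on either strand. The numbers searched ran from 72 in the narrowest sites to 217 in the widest. No other place in these chromosomes thus holds an exact copy of 30 nt of an EEF2 site. Near copies and the spliced sequence across exon junctions were not searched. SNORD37 (3982507 to 3982572, in intron 4) had no peak, and the nearest EEF2 site, the low glucose site of exon 4, was 347 nt away.

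EEF2 was among the genes with the most sites in the glucose lists. In low glucose, 3 of 512 genes (0.586%) had at least 5 peaks, and 1 gene had more than EEF2. In normal glucose, 8 of 533 genes (1.5%) had at least 4 peaks, and 5 genes had more. Most genes had a single peak (86.1% of the low glucose and 81.2% of the normal glucose genes). Since EEF2 was picked with these counts known, its rank is a description. The counts are not corrected for the length of the RNA, nor for its abundance, which the lists do not hold.

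Peaks were sought in other genes of translation, against a share of all protein coding genes with a peak of 1.1% for the galactose list, 1.54% for low glucose and 1.38% for normal glucose. Of 11 genes of elongation, EEF2 alone had a peak, which leaves out EEF1A1, EEF1B2, EEF1D and EEF1G, whose products deliver aminoacyl transfer RNA or recharge the factor that does so, and EEF2K, the kinase of eEF2. None of 7 genes of diphthamide synthesis, 10 related translational GTPases and 3 factors of termination and recycling had a peak either. At 2.79% of all protein coding genes with a peak in any list, none in lists this short is near the background. A further 8 genes encode proteins of the ribosomal stalk, other ribosomal proteins or proteins bound to the ribosome. Of these, 3 had a peak in the galactose list, 2 in that of low glucose and 6 in that of normal glucose. RPLP2, of the stalk on which elongation factors dock, had 1, 4 and 3 peaks in the galactose, low glucose and normal glucose lists, of which 1 in each glucose list was intronic and annotated to 2 genes. RPLP0, the base of the stalk, had none in galactose and low glucose and 2 in coding exons in normal glucose. RPLP1, another protein of the stalk, had 1 peak in galactose, none in low glucose and 1 in normal glucose, both in the 5'UTR. RACK1, a scaffold protein of the small subunit, had 1, 2 and 3 peaks in the same order of lists, and its galactose peak and 1 of its normal glucose peaks were intronic and annotated to 2 genes. SERBP1, which sits with eEF2 on idle ribosomes, had 1 peak, in the 5'UTR and in the normal glucose list alone, and RPSA, a protein of the small subunit, had 1 in that list, which was intronic and annotated to 2 genes.

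The genes whose counts in the 3 lists came nearest to those of EEF2 were RPL13A and RPLP2. Likeness was the sum of the differences in number of peaks over galactose, low and normal glucose, taken over 533 other protein coding genes. RPL13A, a ribosomal protein gene that carries intronic snoRNAs, had 2, 5 and 5 peaks (sum 3) and RPLP2 the same sum. PABPC1, the poly(A)-binding protein, had 0, 3 and 6 peaks and ALDOA, the aldolase of glycolysis, 0, 2 and 3 (sum 4 each). RPS29, KCTD2, RACK1 and RPS19 followed with a sum of 5, taken from 10 genes at that sum by their total of peaks. Of these 8 genes, ALDOA, RACK1 and RPS19, like EEF2, had no low glucose peak met by a normal glucose peak. Among the 103 protein coding genes with peaks in both glucose lists, 38.8% likewise had none overlapping, so this trait was not particular to them. RPL13A had 3 of 5 low glucose peaks met, RPLP2 2 of 4, PABPC1 1 of 3, RPS29 2 of 4 and KCTD2 3 of 3. The place of the peaks differed between these genes and EEF2. In low glucose KCTD2 had 0 peaks with the middle in coding sequence and RPS29 had 1, where EEF2 had 5. Over all lists 8 peaks of KCTD2, 7 of RPS29, 3 of RPL13A, 2 of RPLP2 and 1 of PABPC1 were intronic. RACK1 had 2 intronic peaks, and ALDOA and RPS19 had 0.

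**Figure D4:**
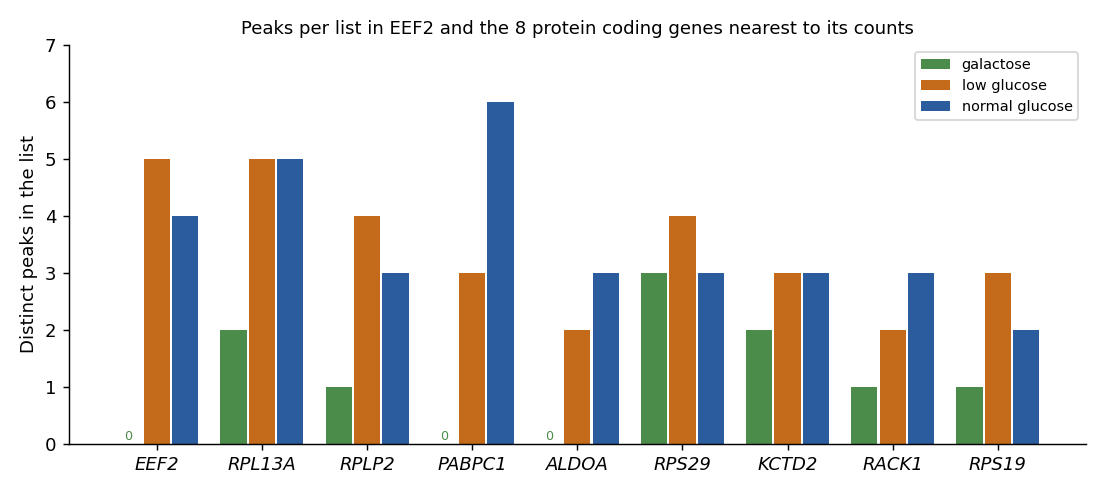
Number of distinct peaks in the galactose, low glucose and normal glucose lists for EEF2 and for 8 protein coding genes with counts near to its own, ties at the last sum broken by the total of peaks. EEF2, PABPC1 and ALDOA have 0 in galactose, and EEF2 has 5 in low glucose and 4 in normal glucose.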

How the data were processed

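GAPDH CLIP-seq was measured in 6 samples of MOLM-13 cells, 2 per condition. Per the labels, the authors joined both samples of a condition. The deposited lists hold chromosome, start, end, Ensembl identifier and symbol, with no counts, scores, strands or p-values, so depth is unknown. The submitters' processing notes name cutadapt, STAR and hg38 (GRCh38), without versions. Per the study's methods, PureCLIP called crosslink sites, neighbouring sites were merged and single ones extended. The joining rule was not given in the sources used here.

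Distinct peaks were counted, with start and end taken as 1-based, inclusive positions. Of 1776 pairs of peak and gene, 1765 overlapped their gene in GENCODE release 44. Exons, codons and sequence came from GENCODE and hg38, read with pysam 0.24.0. The sequences of 2 of the 9 sites are not reported here. The middle base placed a peak. The core is the peak less 50 nt at each end. Shares carry exact Clopper-Pearson 95% intervals (scipy 1.17.1), and a count of 0 allows 3 peaks. No test between conditions was run. Overlap, joining, 30-mer counts and the placing of coding bases were tested on simulated data, but the placing of UTR and intron bases was not. EEF2, the gene lists and the rule for named genes (EEF2, list members with a peak, and up to 8 protein coding genes nearest in counts) were chosen with earlier results of these data known. Alternatives covered row choice, joining, overlap, coordinates, windows and backgrounds.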

Additional observations from a re-analysis of the deposited data

How the results depend on the processing

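The counts of EEF2 sites (0 in galactose, 5 in low glucose, 4 in normal glucose) were the same by Ensembl identifier, by position and with sites joined within 50 nt, and joining within 200 nt left 4 in low glucose. Low and normal glucose sites met in 0 cases with a gap of up to 50 nt or with an overlap of 50% of the shorter peak required, and in 1 case, in exon 12, with a gap of up to 100 or 200 nt. The middle lay in a coding exon for 8 of 9 sites, and for 9 with any base counted. With starts read from 0 the middle of the exon 10 site falls between the exon and the intron, which gave 9 with the upper and 8 with the lower of the middle bases, a choice added after seeing the data. Among protein coding genes alone, 0 genes had more peaks than EEF2 in low glucose (1 among all genes) and 2 in normal glucose (5 among all genes). Chosen after seeing the data, limits of 0, 1 and 20 nt for a core at the 3' end of an exon gave 0, 0 and 2 low glucose sites, and a limit of 0 nt gave 1 normal glucose site. The cores at exon ends were not recounted with starts read from 0, which would move their 3' ends by 1 base. The low glucose excess of GC over the list shrank to 0.13 points against coding exon peaks. No paired analysis was possible because the samples of each condition were joined into 1 list, which also leaves no replicate to leave out. The number of reads behind a site is unknown, so a site missing from a list cannot be told apart from one below the authors' threshold.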
